A study of Mus musculus with 6 samples.

Results

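The period genes Per1, Per2 and Per3, the cryptochrome genes Cry1 and Cry2, and the activator genes Arntl, Clock and Npas2 make up the core of the mammalian circadian clock. These 8 genes were taken by symbol from the 29752 genes listed for each of 6 mouse aortic RNA-seq libraries. The libraries were 3 from PALMD+/- mice, which carry 1 altered copy of Palmd, and 3 from wild-type mice. All were C57BL/6 and 15 weeks old, and a normal diet had been given to both groups for 7 weeks, starting at 8 weeks of age. Palmd encodes palmdelphin, a cytoplasmic relative of paralemmin. The sources used here do not give how the allele was altered, at what hour the aortas were taken or whether each library is a separate animal. P-values therefore measure the spread between these libraries, which may be technical in part. The values are FPKM, that is reads scaled by the length of the gene and the reads of the library. All 8 genes passed a filter of at least 1 FPKM in at least 3 libraries, as did 12620 genes in all. The set was chosen by FPKM values of this genotype comparison that were already known, so the differences are given as a description and support no claim.

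In the clock, a dimer of BMAL1, the product of Arntl, with CLOCK or its relative NPAS2 binds E-box sequences and switches on the Per and Cry genes. PER and CRY proteins then gather, enter the nucleus and shut that dimer off, so that their own transcripts rise and fall once a day. A second loop acts on ROR elements, through which ROR receptors switch on Arntl, Npas2 and Cry1 and the REV-ERB receptors, encoded by Nr1d1 and Nr1d2, switch them off. D-box elements, read by DBP, TEF and HLF and opposed by NFIL3, add a further timing signal, and Per3 is among their known targets. The clock runs in the smooth muscle, endothelium and perivascular fat of arteries.

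Promoter sequences show which of these elements lie beside the members. RefSeq windows (GRCm38.p6, from 250 bases before to 50 after an annotated start) were found for 7 of the 8 genes, the exception being Per2. They were searched on both strands for the E-box CACGTG, the variant E-box CACGTT, the D-box TTATGNAA, the core of the ROR element TNGGTCA and the cyclic AMP element TGACGTCA. The upstream parts of Cry1, Per1 and Per3 and 30 bases of Arntl are printed because each holds an element that the loops above use. Capitals mark every match, and each run is 5′ to 3′ on the strand of its gene.
Cry1, chr10:85185055-85185304, minus strand: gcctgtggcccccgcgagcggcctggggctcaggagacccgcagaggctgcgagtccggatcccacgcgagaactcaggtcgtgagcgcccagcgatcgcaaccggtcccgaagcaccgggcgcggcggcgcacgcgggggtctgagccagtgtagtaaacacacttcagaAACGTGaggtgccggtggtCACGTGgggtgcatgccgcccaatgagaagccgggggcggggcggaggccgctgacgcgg
Per1, chr11:69098699-69098948, plus strand: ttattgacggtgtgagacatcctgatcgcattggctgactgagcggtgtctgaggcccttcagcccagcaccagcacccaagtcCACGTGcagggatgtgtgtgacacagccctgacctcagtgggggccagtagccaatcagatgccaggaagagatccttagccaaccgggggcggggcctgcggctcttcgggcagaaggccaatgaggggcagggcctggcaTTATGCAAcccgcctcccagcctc
Per3, chr4:151044666-151044915, minus strand: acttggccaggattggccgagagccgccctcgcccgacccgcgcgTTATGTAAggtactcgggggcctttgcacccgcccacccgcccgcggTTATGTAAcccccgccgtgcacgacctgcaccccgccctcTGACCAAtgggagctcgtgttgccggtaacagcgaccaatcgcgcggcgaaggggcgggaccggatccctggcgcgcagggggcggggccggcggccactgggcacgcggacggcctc
Arntl, chr7:113207529-113207558, plus strand: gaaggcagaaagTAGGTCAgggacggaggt

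The Cry1 window held 1 E-box, whose first base is at position -60 from the start, and 1 variant E-box at position -79. Per1 held 1 E-box and 1 D-box in the window of its more upstream start and no match in the window of its other start. Per3 held 2 D-boxes and no E-box, and its 1 match to the ROR core shares bases with a CCAAT box. The ROR core TAGGTCA of Arntl lies just inside the transcript of its second annotated start. The windows of Arntl held 2 further matches to the ROR core before the start, of which 1 overlaps a CCAAT box. Cry2 held 1 variant E-box and 1 ROR core match that overlaps a CCAAT box, while Clock and Npas2 had no match in their windows. Among all 32851 windows of this length, 7.15% held the E-box, 4.68% the variant E-box, 3.38% the D-box, 11.0% the ROR core and 1.79% the cyclic AMP element. A match describes letters in a window and shows no binding.

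The libraries were of like depth, with 17283951 to 18372131 reads behind the values. Their make-up was less alike. Smooth muscle markers summed to 4726 FPKM in heterozygote replicate 2 and to 7071 to 10190 FPKM in the other libraries. The Palmd values overlapped, with 5.31, 7.19 and 6.21 FPKM in the heterozygotes against 5.49, 7.88 and 10.1 FPKM in the wild-type libraries. Heterozygote replicate 2 stood apart, with a mean correlation of 0.930 with the other libraries, against 0.960 to 0.971 for each of those. Its 7 white adipocyte markers summed to 4841 FPKM, against 1380 and 1936 FPKM in heterozygote replicates 1 and 3 and 1605 to 3697 FPKM in wild type. Its 6 endothelial markers summed to 217 FPKM, against 647 to 735 FPKM in the other 5 libraries. Its chondrocyte markers summed to 121 FPKM, against 820 to 998 FPKM in those 5. Its Schwann cell and nerve markers summed to 70.7 FPKM, against 13.1 to 20.7 FPKM. None of these marker genes was at 0 in any library. The brown adipocyte markers, of which Elovl3 was at 0 in some library, summed to 68.8, 1232 and 275 FPKM in heterozygote replicates 1 to 3. In wild-type replicates 1 to 3 they summed to 219, 994 and 795 FPKM. In bulk tissue, fewer cells of a type and less RNA per cell cannot be told apart.

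Cry1 differed most between the genotypes, Per2 was lower in heterozygotes with a slight overlap, and the means of Per1 and of Cry2 were close in the 2 genotypes. Of the members, 6 had a negative and 2 a positive difference, heterozygote minus wild type, and the median was -0.19 on the log2(FPKM + 1) scale, against 0.01 over all tested genes. Genotype groups without overlap were seen for 2 of the 8, Cry1 and Clock, both lower in heterozygotes. Over all tested genes 12.9% had groups without overlap, 5.12% lower and 7.8% higher. With limma and Benjamini-Hochberg adjustment over all 12620 genes, 0 of the 8 passed an adjusted p of 0.05, as did 0% of all genes in either direction. The adjusted p of the members ranged from 0.231 for Cry1 to 0.994 for Per1. At an unadjusted p under 0.05 there were 2 members, Cry1 and Per2, against 6.5% of all genes, and limma voom on recovered reads also called 0. Because this comparison chose the set, nothing is read from these counts.

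**Figure D1:**
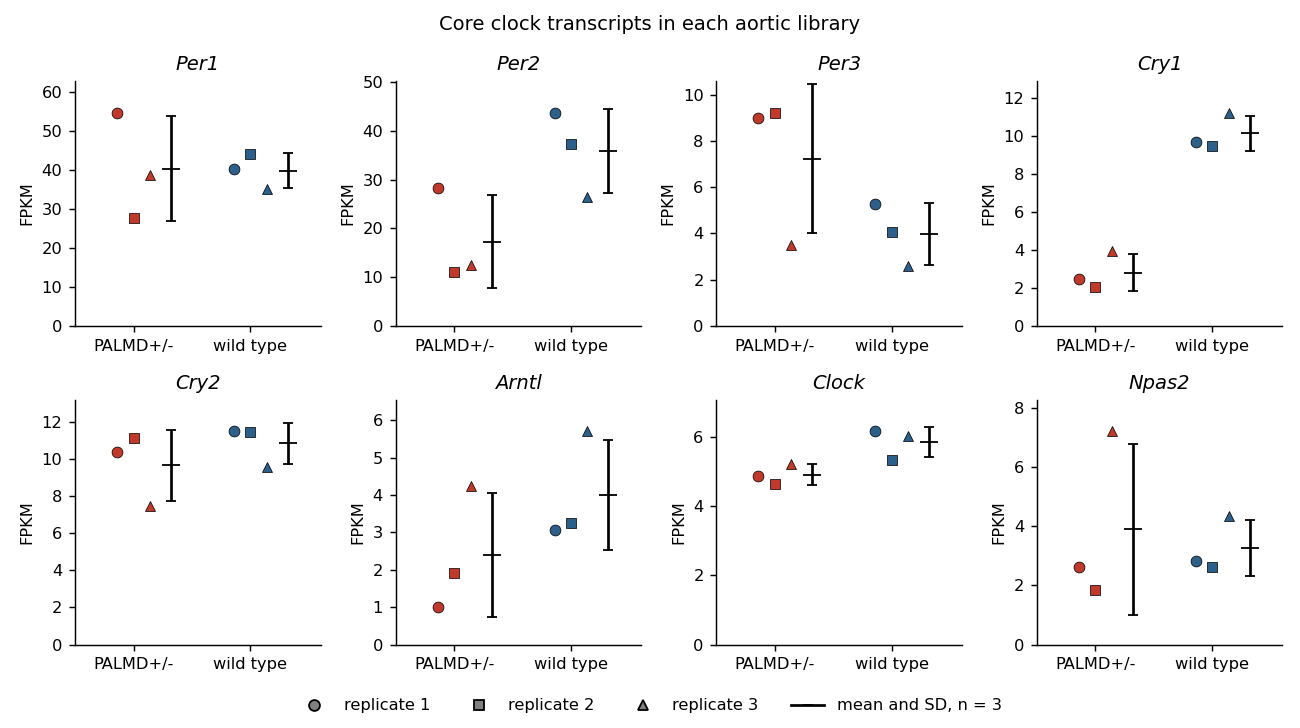
FPKM of the 8 core clock genes in each library, with PALMD+/- libraries in red on the left and wild-type libraries in blue on the right of each panel. Symbols give the replicate number and black bars the mean and SD (n = 3). The 3 heterozygote values of Cry1 lie between 2.04 and 3.93 FPKM, all under the wild-type values of 9.50 to 11.2 FPKM.

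Cry1 (ENSMUSG00000020038, GRCm38 chromosome 10, 85131700 to 85185064, minus strand) encodes the cryptochrome that blocks the BMAL1 dimer late in the cycle. The level was 2.46, 2.04 and 3.93 FPKM in heterozygote replicates 1 to 3, against 9.71, 9.50 and 11.2 FPKM in wild-type replicates 1 to 3. Every heterozygote library lay far under every wild-type library. The means were 2.81 ± 0.993 FPKM in heterozygotes and 10.1 ± 0.938 FPKM in wild type (SD, n = 3 each), the first being 27.7% of the second. These values rest on 150, 118 and 240 reads in heterozygotes, against 593, 583 and 675 reads in wild type, where counting alone gives a relative error of at most 9.21%. The log2 fold change was -1.58 (SE 0.19). On this scale 13 of all tested genes, or 0.103%, Cry1 among them, had a change of that size or larger in either direction. As this comparison chose the set, that count supports no claim.

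With the level of the adipocyte markers as a covariate, the log2 fold change of Cry1 was -1.59. Without heterozygote replicate 2 the log2 fold change of Cry1 was -1.43, and over all single libraries left out it ran from -1.78 to -1.43. Array quality weights were 0.668, 0.17 and 3.59 for heterozygote replicates 1 to 3, and 0.76, 3.11 and 1.04 for wild-type replicates 1 to 3. The weighted fit thus leaned mostly on heterozygote replicate 3 and wild-type replicate 2, here and for every gene below. With array quality weights Cry1 was at -1.24 and passed (limma adjusted p = 0.0266). That setting called 1.84% of all genes.

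Cry2 (ENSMUSG00000068742, chromosome 2, 92403646 to 92434043, minus strand) encodes the second cryptochrome, which shares the repressor role. The level was 10.4, 11.1 and 7.49 FPKM in heterozygote replicates 1 to 3, against 11.5, 11.5 and 9.58 FPKM in wild-type replicates 1 to 3. The groups overlapped, and replicate 3 was the lowest of each. The means were 9.67 ± 1.93 FPKM in heterozygotes and 10.9 ± 1.10 FPKM in wild type (log2 fold change -0.16, SE 0.16), and the change was -0.27 without heterozygote replicate 2, -0.0069 without heterozygote replicate 3 and -0.42 with array quality weights. Exons of Cry2 share 295 bases, 4.67% of their length, with D930015M05Rik on the other strand. The kit is not described as keeping strand, so reads there cannot be assigned. D930015M05Rik was at 0.874 to 1.07 FPKM, and the part of the shared bases in the Cry2 values was not tested.

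Per2 (ENSMUSG00000055866, chromosome 1, 91415982 to 91459324, minus strand) encodes a PER protein that the clock needs to keep its rhythm. The level was 28.3, 11.1 and 12.4 FPKM in heterozygote replicates 1 to 3, against 43.7, 37.4 and 26.5 FPKM in wild-type replicates 1 to 3. Only heterozygote replicate 1 reached the wild-type range, where it lay just above wild-type replicate 3. The means were 17.3 ± 9.55 FPKM in heterozygotes and 35.9 ± 8.68 FPKM in wild type, the first being 48.2% of the second. The log2 fold change was -1.10 (SE 0.37, limma adjusted p = 0.678). It ran from -1.50 to -0.87 with single libraries left out.

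Per1 (ENSMUSG00000020893, chromosome 11, 69095217 to 69109960, plus strand) encodes the PER protein whose gene is rapidly induced by cyclic AMP and glucocorticoid signals. By mean it was the most abundant member per length in both genotypes, but Per2 exceeded it in wild-type replicate 1 (43.7 against 40.4 FPKM). Its values were 54.7, 27.7 and 38.8 FPKM in heterozygote replicates 1 to 3, against 40.4, 44.1 and 35.1 FPKM in wild-type replicates 1 to 3. Heterozygotes held both the highest and the lowest of the 6 values. The means were 40.4 ± 13.6 FPKM in heterozygotes and 39.9 ± 4.55 FPKM in wild type (log2 fold change -0.03, SE 0.25). The sign turned with the library left out, from -0.27 without heterozygote replicate 1 to 0.21 without heterozygote replicate 2.

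Per3 (ENSMUSG00000028957, chromosome 4, 151003652 to 151044665, minus strand) encodes the PER protein that is dispensable for the core rhythm in mice. The level was 8.98, 9.21 and 3.52 FPKM in heterozygote replicates 1 to 3, against 5.27, 4.04 and 2.59 FPKM in wild-type replicates 1 to 3. Heterozygote replicates 1 and 2 lay above all wild-type libraries, and heterozygote replicate 3 lay inside their range. The means were 7.24 ± 3.22 FPKM in heterozygotes and 3.97 ± 1.34 FPKM in wild type (log2 fold change 0.67, SE 0.36). Without heterozygote replicate 3 the change was 1.06, and with array quality weights it was 0.11.

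Arntl (ENSMUSG00000055116, chromosome 7, 113207465 to 113314126, plus strand) encodes BMAL1, the one activator subunit without which the clock stops in mice. The level was 1.01, 1.91 and 4.23 FPKM in heterozygote replicates 1 to 3, against 3.05, 3.26 and 5.70 FPKM in wild-type replicates 1 to 3. Replicates 1 and 2 of the heterozygotes lay under all wild-type libraries and replicate 3 lay among them. The means were 2.39 ± 1.66 FPKM in heterozygotes and 4.01 ± 1.47 FPKM in wild type, and the log2 fold change was -0.64 (SE 0.37). It was -0.32 without heterozygote replicate 1, -1.01 without heterozygote replicate 3, -0.41 without wild-type replicate 3 and -0.07 with array quality weights.

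Clock (ENSMUSG00000029238, chromosome 5, 76209868 to 76304792, minus strand) encodes the usual partner of BMAL1. The level was 4.86, 4.63 and 5.22 FPKM in heterozygote replicates 1 to 3, against 6.15, 5.35 and 6.03 FPKM in wild-type replicates 1 to 3. The groups did not overlap, but the gap between heterozygote replicate 3 and wild-type replicate 2 was narrow. The means were 4.91 ± 0.297 FPKM in heterozygotes and 5.84 ± 0.435 FPKM in wild type, the first being 84.0% of the second. The log2 fold change was -0.21 (SE 0.09, limma adjusted p = 0.774), and it was -0.11 with array quality weights.

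Npas2 (ENSMUSG00000026077, chromosome 1, 39193731 to 39363236, plus strand) encodes the relative of CLOCK that can take its place. The level was 2.63, 1.84 and 7.20 FPKM in heterozygote replicates 1 to 3, against 2.83, 2.62 and 4.36 FPKM in wild-type replicates 1 to 3. Replicate 3 was the highest of both genotypes and the groups overlapped. The means were 3.89 ± 2.90 FPKM in heterozygotes and 3.27 ± 0.947 FPKM in wild type (log2 fold change 0.06, SE 0.40). The sign turned to -0.39 without heterozygote replicate 3, and the value was 0.81 with array quality weights.

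**Figure D2:**
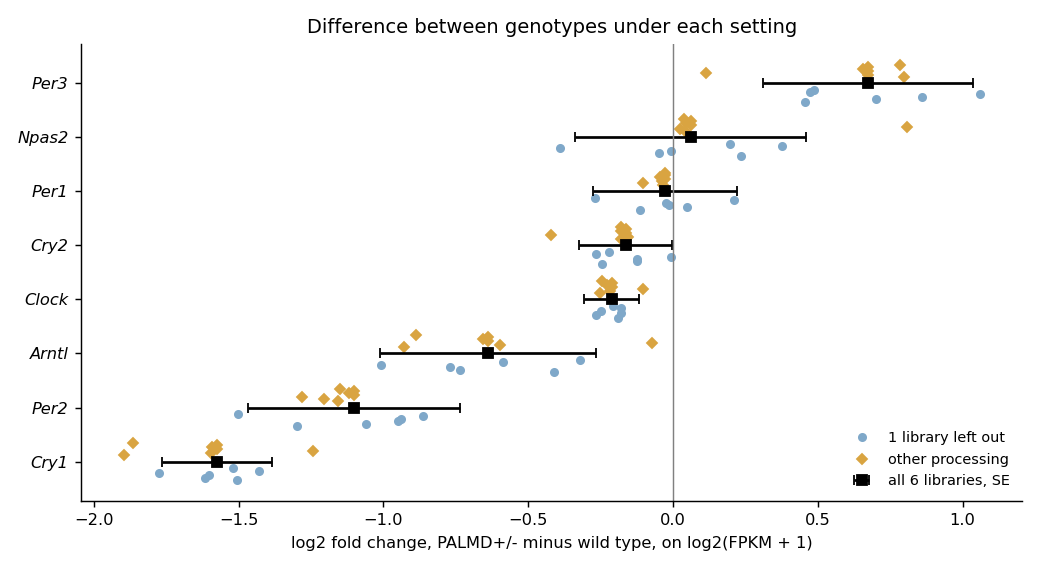
Log2 fold change of each member on the log2(FPKM + 1) scale, PALMD+/- minus wild type, ordered from highest to lowest. Black squares with SE bars use all 6 libraries, blue points leave out 1 library each and yellow diamonds change another step. All values of Cry1 lie between -1.90 and -1.24, while those of Per1 and Npas2 lie on both sides of 0.

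In order of mean level per length, heterozygotes had Per1, Per2, Cry2, Per3, Clock, Npas2, Cry1 and Arntl, and each neighbour in that order overlapped the next. Wild-type libraries had Per1, Per2, Cry2, Cry1, Clock, Arntl, Per3 and Npas2. There the ranges of Per2 and Cry2 and those of Cry1 and Clock were apart, and all other neighbours overlapped. Cry1 was thus at place 7 in heterozygotes and place 4 in wild type, and Per3 at place 4 in heterozygotes and place 7 in wild type.

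The share that each Per gene and each Cry gene took in its family separated the 6 libraries by genotype. How often shares in other gene families do so was not computed. The shares and sums given here are built from the values that chose the set, so they restate them and support no claim. A share also depends on the other genes of its sum, and the level of Per1 itself overlapped. Per2 gave 30.8%, 23.1% and 22.7% of the summed Per FPKM in heterozygote replicates 1 to 3, against 48.9%, 43.7% and 41.3% in wild-type replicates 1 to 3. Those shares did not overlap, although Per2 alone did. Per1 gave 57.7% to 70.8% of that sum in heterozygotes and 45.2% to 54.7% in wild type, and Per3 gave 6.43% to 19.2% in heterozygotes and 4.03% to 5.90% in wild type. The summed Per level was 64.9 ± 23.7 FPKM in heterozygotes and 79.7 ± 13.6 FPKM in wild type, with overlap.

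Cry1 gave 19.1%, 15.5% and 34.5% of the summed Cry FPKM in heterozygote replicates 1 to 3, against 45.8%, 45.3% and 53.9% in wild-type replicates 1 to 3. The 2 cryptochromes were thus nearly equal in wild type, and Cry2 prevailed in heterozygotes. The summed Cry level was 12.5 ± 0.938 FPKM in heterozygotes and 21.0 ± 0.205 FPKM in wild type, with no overlap. Npas2 gave 58.0% of the summed Clock and Npas2 FPKM in heterozygote replicate 3, against 28.4% to 35.1% in the other heterozygotes and 31.5% to 42.0% in wild type. It was the one library in which Npas2 exceeded Clock.

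**Figure D3:**
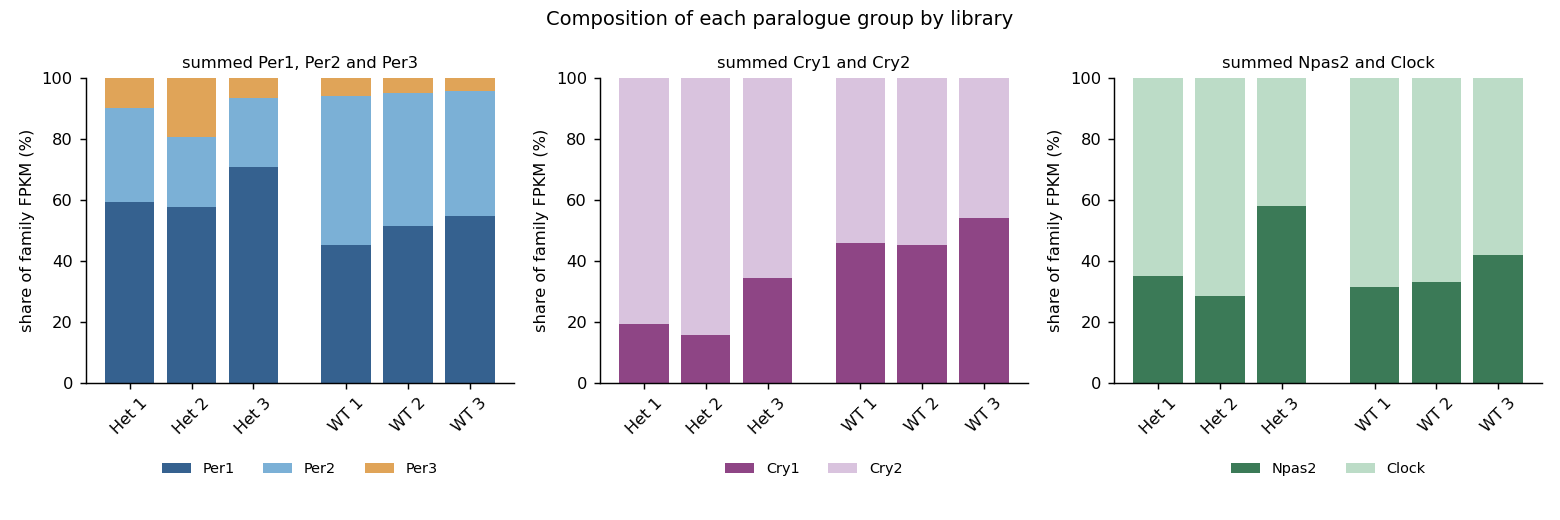
Share of the summed FPKM, in percent, given by each gene of the Per family, the Cry family and the pair of BMAL1 partners in each library (Het, PALMD+/-; WT, wild type; the number is the replicate). Cry1 takes 15.5% to 34.5% of the Cry sum in heterozygotes and 45.3% to 53.9% in wild type.

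Libraries of 1 genotype also differed among themselves, and several members did so in a shared order. Arntl, Cry1 and Npas2 were highest, and Per3 and Cry2 lowest, in replicate 3 of both genotypes. The replicate numbers come from the titles, which state no pairing of a heterozygote library with a wild-type one. The heterozygote files number their columns differently, with 3 for title replicate 1 and 2 for title replicate 3. By those numbers the order is not shared. Across the 6 libraries Per3 was ordered in nearly the reverse of Arntl. Heterozygote replicates 1 and 2, with the least Arntl, had the most Per3, and wild-type replicate 3, with the most Arntl, had the least Per3. The Per3 to Arntl ratio was 8.87, 4.81 and 0.833 in heterozygote replicates 1 to 3, against 1.73, 1.24 and 0.454 in wild-type replicates 1 to 3. The genotypes overlapped in that ratio because heterozygote replicate 3 sat among the wild-type libraries. Cry1 set the same library apart from wild type by a wide gap, so the members did not place it alike.

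**Figure D4:**
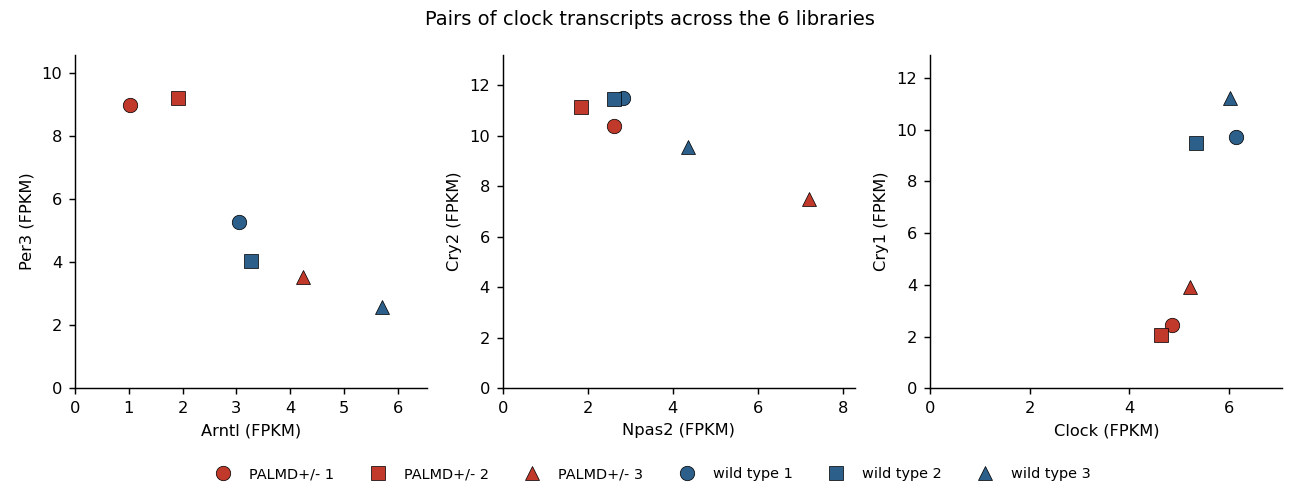
FPKM of Per3 against Arntl, Cry2 against Npas2 and Cry1 against Clock in the 6 libraries (red, PALMD+/-; blue, wild type; symbols give the replicate). Heterozygote replicate 3 lies beside the wild-type libraries in the panel of Per3 and Arntl, and with the other heterozygotes at 3.93 FPKM of Cry1 in the panel of Cry1 and Clock.

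The spread between libraries of 1 genotype was wide for most members. On the log2(FPKM + 1) scale the pooled within-genotype SD was 0.61 for Npas2, 0.57 for Arntl, 0.55 for Per2 and 0.55 for Per3, against a median of 0.18 over all tested genes. Among genes with a mean FPKM within a factor of 2 of the member, 4.60% had a larger SD than Npas2, 5.64% than Arntl, 8.54% than Per2 and 5.32% than Per3. Per1 at 0.36, Cry1 at 0.27 and Cry2 at 0.22 were less variable, with 24.6%, 23.4% and 33.0% of like genes above them. Clock was the steadiest, at 0.08, with 88.7% of like genes above it.

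**Figure D5:**
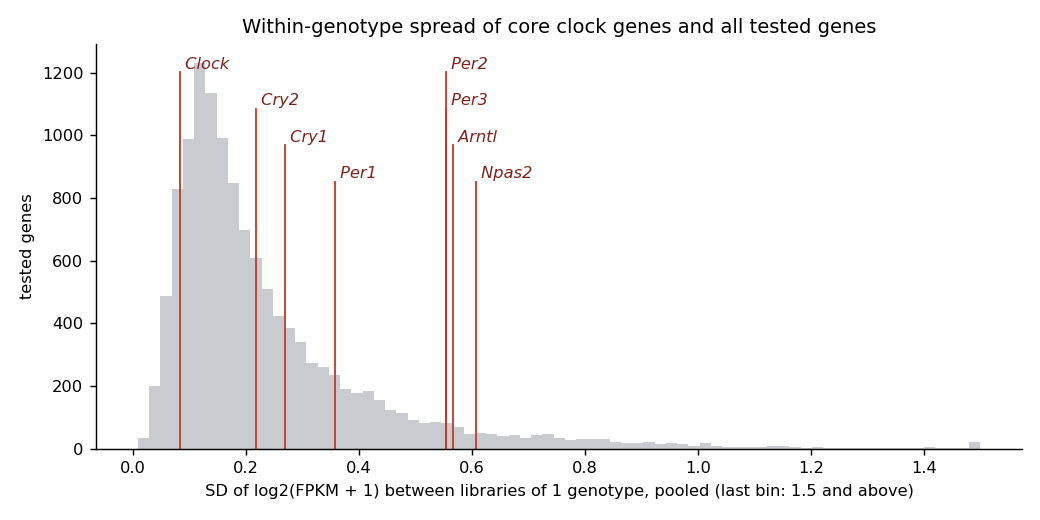
Number of tested genes by the pooled SD of log2(FPKM + 1) between libraries of 1 genotype, with the last bin holding values of 1.5 and above. Red lines mark the members. Clock, at 0.08, lies left of the median of 0.18, and Per2, Per3, Arntl and Npas2, at 0.55 to 0.61, lie in the right tail.

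The other clock genes were taken from 5 lists drawn up by role, with earlier results of these data known. In the receptor loop, 5 of 6 genes were tested and 0 passed in either direction. Against 12.9% of all tested genes, 2 had groups without overlap, both higher. These were the repressors Nr1d1 (87.7, 82.1 and 33.9 FPKM in heterozygotes, against 5.07, 5.93 and 7.58 FPKM in wild type) and Nr1d2 (log2 fold change 1.35, SE 0.36). Within the heterozygotes, replicate 3 had the least Nr1d1 and Nr1d2 and the most Arntl, Npas2 and Cry1. Within wild type, replicate 3 also had the most of those 3 members and the least Nr1d2 (5.02 FPKM, against 8.71 and 8.95 FPKM in wild-type replicates 1 and 2), but the most Nr1d1. The log2 fold change was -0.25 (SE 0.18) for the activator Rora and -0.96 (SE 0.51) for the D-box repressor Nfil3. Without heterozygote replicate 2 they were -0.065 for Rora and -0.42 for Nfil3, without heterozygote replicate 1 Rora was at -0.40, and without heterozygote replicate 3 Nfil3 was at -1.52. With array quality weights Nr1d2 was at 0.81, Rora at -0.11 and Nfil3 at -0.094. The list's median was -0.25.

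All 6 output and feedback factors were tested, 0 passed, and all 6 had a positive difference (median log2 fold change 0.57), as did 53.1% of all tested genes. Groups without overlap were seen for 2 of the 6, against 12.9% of all tested genes. There was no overlap for the D-box activator Dbp (40.5, 35.2 and 8.96 FPKM in heterozygotes, against 2.72, 3.38 and 0.965 FPKM in wild type) or for Ciart, a repressor of the BMAL1 dimer (log2 fold change 1.28, SE 0.40). Tef, a D-box activator, had a log2 fold change of 0.58 and Bhlhe41, an E-box repressor, one of 0.57. With array quality weights Dbp was at 1.85, Ciart at 0.53, Tef at 0.18 and Bhlhe41 at 0.039. Without wild-type replicate 3 Tef was at 0.36, and Bhlhe41 was at 0.37 without heterozygote replicate 2 and 0.90 without heterozygote replicate 3. Hlf, a D-box activator, and Bhlhe40, an E-box repressor, had ones of 0.18 and 0.14, whose signs turned with the library left out.

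Of the kinases, ubiquitin ligases and related factors for PER and CRY, 15 of 16 were tested and 0 passed (median log2 fold change -0.03). Groups without overlap were seen for Btrc and Cul1 only, against 12.9% of all tested genes. Btrc, a ligase subunit that targets PER proteins, was at 1.67 ± 0.138 FPKM in heterozygotes and 1.25 ± 0.173 FPKM in wild type without overlap, and the ligase scaffold Cul1 at 20.2 ± 1.30 FPKM in heterozygotes and 22.9 ± 0.903 FPKM in wild type, also without overlap. The log2 fold change was -0.42 (SE 0.23) for the deubiquitinase Usp2 and -0.15 (SE 0.14) for the ligase subunit Fbxw11. All 15 partners and coregulators of the activators were tested and 0 passed (median log2 fold change 0.00). Only 1 of the 15 had groups without overlap, against the same 12.9% of all tested genes. Hdac3, a deacetylase recruited by REV-ERB, was at 18.0 ± 1.12 FPKM in heterozygotes and 14.8 ± 0.526 FPKM in wild type without overlap, and its partner Ncor1 had a log2 fold change of -0.17. The RNA-binding PER partner Sfpq was at -0.38 (SE 0.19) and the acetyltransferase Kat2b at 0.13 (SE 0.10).

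All 11 genes of the signalling inputs to Per transcription were tested, 0 passed and 8 had a negative difference (median log2 fold change -0.13). Over all tested genes 53.1% had a positive difference. Only 1 of the 11 had groups without overlap, against 12.9% of all tested genes. Fkbp5, a glucocorticoid-induced cochaperone, was at 10.2 ± 1.92 FPKM in heterozygotes and 17.2 ± 1.46 FPKM in wild type without overlap (log2 fold change -0.72, SE 0.15). Sik1, a kinase induced by cyclic AMP signalling, had 26.2, 10.5 and 14.3 FPKM in heterozygote replicates 1 to 3, against 25.2, 64.1 and 54.5 FPKM in wild-type replicates 1 to 3. Its groups overlapped only in that heterozygote replicate 1 lay just above wild-type replicate 1. The glucocorticoid receptor Nr3c1 and the cyclic AMP factor Creb1 both had log2 fold changes of -0.13. The part of these inputs or of the receptors in the values of the members was not tested. Nor was that of any marker level. The white adipocyte level entered a fit as a covariate, but heterozygote replicate 2, where it was highest, stood apart in other markers too. That fit therefore cannot single out the white adipocyte level.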

How the data were processed

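The authors deposited 1 table per library of FPKM values, read as such from the values, with an Ensembl identifier and a symbol per gene. Per the submitters' processing notes, HISAT2 2.1.0, Bowtie2 2.2.3, TopHat2 and GRCm38 were used; the sources used here do not give their roles, the counter or its annotation. Per the labels' protocols, mRNA was captured on poly-T beads. Multiplied by exon-union lengths of GENCODE M21 (found for 29687 of 29752 identifiers), 95.0% to 95.5% of the values worth 20 reads or fewer were whole reads within 0.01, which gives the depth. Groups and numbers follow the titles; the heterozygote files number their columns differently.

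limma 3.58.1 (R 4.3.3, mean-variance trend) compared heterozygotes with wild type on log2(FPKM + 1) over the 12620 genes that reached 1 FPKM in 3 or more libraries, with Benjamini-Hochberg adjustment at 0.05. This scale understates changes of low genes. In 5 simulated runs of this comparison on 12620 genes, recovery was 46.8% for genes with a simulated 2-fold change and 79.8% for a 4-fold change, beside 6.4 false calls in a run. Each run changed 200 genes and drew noise independently for each gene, so it held no library that stood apart. The rates may not hold for the real libraries. There Nr1d1 and Dbp, with ratios of means of 10.96 and 11.99, did not pass. The members, gene lists and tests were chosen with earlier results of these data known. Named besides the members were the tested receptor and output genes, except 1 receptor-loop gene that is not reported here, the 4 smallest p of each other list, and the 3 genes most like each member by Pearson r. Figures used matplotlib 3.10.9 in Python 3.11.15. Intervals on reads cover counting error only.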

Additional observations from a re-analysis of the deposited data

How the results depend on the processing

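Over 13 alternatives (a pseudocount of 0.1, no filter, centred medians, the replicate block, array quality weights, white adipocyte marker level as covariate, limma voom on recovered reads, and each library left out), Per2, Per3, Cry1, Cry2, Arntl and Clock kept their direction. With single libraries left out, Per1 ran from -0.27 to 0.21, turning positive without heterozygote replicate 2 (0.21) and wild-type replicate 2 (0.047). Npas2 ran from -0.39 to 0.38 and turned to -0.39, -0.0067 and -0.047 without heterozygote replicate 3, wild-type replicate 1 and wild-type replicate 2. Hlf (range -0.091 to 0.54) turned to -0.31 with array quality weights and -0.091 without heterozygote replicate 1. Bhlhe40 (range -0.30 to 0.54) turned to -0.74 with array quality weights, -0.30 without heterozygote replicate 2 and -0.18 without wild-type replicate 1. The cause was not tested. The number of genes called, 0 with all libraries (820 at an unadjusted p under 0.05), was 232 with array quality weights, among them Cry1, Nr1d1, Sik1 and Fkbp5, and 0 to 1 with 1 library left out. The 1 was Zbtb16 without heterozygote replicate 1, Nr1d1 without heterozygote replicate 3 (limma adjusted p = 0.0385), Gm17720 without wild-type replicate 1 and Trbd1 without wild-type replicate 2, of which Zbtb16, Gm17720 and Trbd1 were named after their values were seen. Of the other named genes, changes moved by over 1.5 times for Usp2 (-0.42) to -0.69 with array quality weights and -0.18 without wild-type replicate 2, for Sfpq (-0.38) to -0.20 without heterozygote replicate 2 and for Btrc (0.25) to 0.40 with a pseudocount of 0.1 and 0.42 with limma voom. Those of Fbxw11, Kat2b, Ncor1, Nr3c1 and Creb1, all within 0.2 of 0, also moved by that much with some library left out. With the replicate block it was 0. Same-numbered libraries had correlations of their deviations of 0.508, -0.088 and -0.342. Deviations sum to 0 within each genotype, and only the numbering of the titles was checked. These values therefore cannot tell whether libraries were paired. In leave-one-out counts chosen after seeing the data, 2 to 4 members had groups that did not overlap. The 4 were Cry1, Clock, Arntl and Per3 without heterozygote replicate 3 (19.8% of all genes), and Cry1, Clock, Per2 and Cry2 without wild-type replicate 3 (18.5% of all genes). Without heterozygote replicate 2 they were Cry1 and Clock, against 33.1% of all genes. Depth limits Cry1, Arntl and Npas2 most, whose lowest libraries held 118, 139 and 152 reads.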

Other observations

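The genes whose log2(FPKM + 1) most resembled each member over the 6 libraries were ranked by Pearson r among the tested genes, as a description. With 6 libraries that share a genotype difference and depth, many genes reach a high r. For Cry1 they were Piga, Aldh1a3 and Otub2 (r = 0.997, 0.994 and 0.994), and 26 genes were above 0.95. Aldh1a3, a retinal dehydrogenase, was at 8.33, 8.32 and 9.25 FPKM in heterozygotes, against 11.7, 11.2 and 11.6 FPKM in wild type. For Per3 the first was the D-box activator Tef (r = 0.989), followed by Brpf1 and Vps26b (0.984 each), with 18 genes above 0.95. Tef was at 38.0, 35.6 and 20.1 FPKM in heterozygotes, against 25.9, 20.8 and 14.3 FPKM in wild type, so that both had their lowest value of each genotype in replicate 3.

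For Per2 they were Phf6, Itch and Wasf2 (r = 0.995, 0.990 and 0.984), with 40 genes above 0.95. Those of Per1 were Tns2, Cdc42se2 and Ddx54 (r = 0.989, 0.989 and 0.986), with 57 genes above 0.95. For Cry2 they were Inhbb, Galnt15 and Hoxa5 (r = 0.984, 0.968 and 0.967), and for Clock Bbs12, Asb13 and Rbm28 (0.981, 0.969 and 0.963), with 7 genes above 0.95 for either. For Arntl they were Tbcb, Dalrd3 and AC126687.1 (r = 0.988, 0.987 and 0.987), with 11 genes above 0.95. Those of Npas2 were Nup43, Emg1 and Psmd7 (r = 0.993, 0.992 and 0.982), with 15 genes above 0.95. Of these 24 genes Tef was the one on a list of clock genes drawn up for this comparison.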
